A study of Danio rerio with 12 samples.

Results

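Integrin alpha and beta chain genes were read in 12 RNA-seq libraries of macrophages and endothelial cells sorted from the heads of zebrafish larvae, some of them with a ruptured brain vessel. Members were the genes whose deposited protein description begins with integrin alpha or integrin beta, 42 of 33737 gene IDs. Of these, 39 are chain genes, 27 alpha and 12 beta. The other 3 are ITGB1BP1 (ENSDARG00000007169), which encodes a cytoplasmic protein that binds the beta-1 tail, and a pair of integrin beta-like genes, which encode no integrin chain. The study asks how a macrophage repairs a brain vessel by adhering to its broken ends and pulling on them, per its title.

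The libraries formed 6 groups of 2. Macrophages came from strain ABGO larvae of the line Tg(coro1a:Kaeda; flk1:eGFP) and endothelial end cells from strain ABGO larvae of the line Tg(flk1:DenNTR; coro1a:eGFP). Each cell type had a control group without injury, a group taken when a macrophage had arrived at the lesion and a group taken during its traction. Each cell type came from its own line, so cell type and line cannot be told apart. Larval age is not given in the labels. Every group, controls included, carried both transgenes of its line and was converted with a 405 nm laser. The coro1a promoter is active in leukocytes generally, so the line does not by itself separate macrophages from neutrophils. About 80 cells in 20 animals were converted, the number sorted into a library is not stated, and separate clutches or days for the replicates are not stated in the labels, so a p-value speaks only for the spread among these 12 libraries.

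An integrin is a pair of membrane proteins, 1 alpha and 1 beta chain, that binds matrix proteins or receptors on other cells and couples them to the actin cytoskeleton. The chain pairing sets the ligand. The beta-2 chain is shared by the leukocyte integrins, among them alpha-L with beta-2, which binds ICAM proteins on endothelium. Alpha-1 and alpha-2 pair with beta-1 and bind collagens, alpha-5 with beta-1 binds fibronectin, and alpha-V pairs with several beta chains and binds vitronectin and fibronectin. These pairings are known mainly from mammals.

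Reads in genes ran from 12283046 to 39447004 per library. Added up, 29 macrophage markers came to 3290.4 to 14704.2 RPKM in macrophages. Endothelial control replicate 2 held 1541.3 RPKM of them and the remaining 5 endothelial libraries 0.927 to 34.3. The 16 endothelial marker genes summed to 241.7 to 4225.6 RPKM in endothelial and 10.1 to 35.4 in macrophage libraries. Markers of photoreceptors and lens summed to 256.5 RPKM or less in 9 libraries. The other 3, called the photoreceptor libraries below, were endothelial arrival replicate 2 (12984.8 RPKM), endothelial traction replicate 1 (14830.5) and macrophage traction replicate 1 (1172.8). Erythroid markers reached 19643.0 to 71002.7 RPKM in 5 endothelial libraries and at most 118.8 in the others. Neutrophil markers reached 2312.9 RPKM in macrophage traction replicate 1 and at most 25.1 elsewhere. Mural cell markers summed to 798.4 RPKM in macrophage arrival replicate 2, 1090.0 in macrophage traction replicate 1 and at most 286.5 elsewhere. Neuron markers ran from 0.527 to 1561.3 RPKM, highest in endothelial arrival replicate 2. The part of these cells in the chain values was not tested.

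Values are RPKM, reads scaled to the gene's length and the library's depth, written replicate 1 first. A difference is a log2 value of RPKM + 1 and is given with its SE. The added 1 makes it understate the change of low genes. A gene was called at a limma p below 0.05 after Benjamini-Hochberg adjustment over all 17613 genes tested. Of the 42 members 30 passed the filter on low reads and were tested, 29 of them chains. In bulk RNA from so few cells, fewer cells of a type and less RNA per cell cannot be told apart.

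The chain values were close to all or nothing within a library. Of the 468 values of 39 chains in 12 libraries, 221 were 0 reads, 89 were 1 to 9 reads and 126 were 100 reads or more, and the last held 99.5% of all chain reads. Between 15 and 29 chains had at least 1 read in a library, and between 1 and 8 stood at 10 RPKM or more. Over all 33737 gene IDs, 8929 to 17011 had reads in a library, so values of 0 were not particular to the chains.

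**Figure D1:**
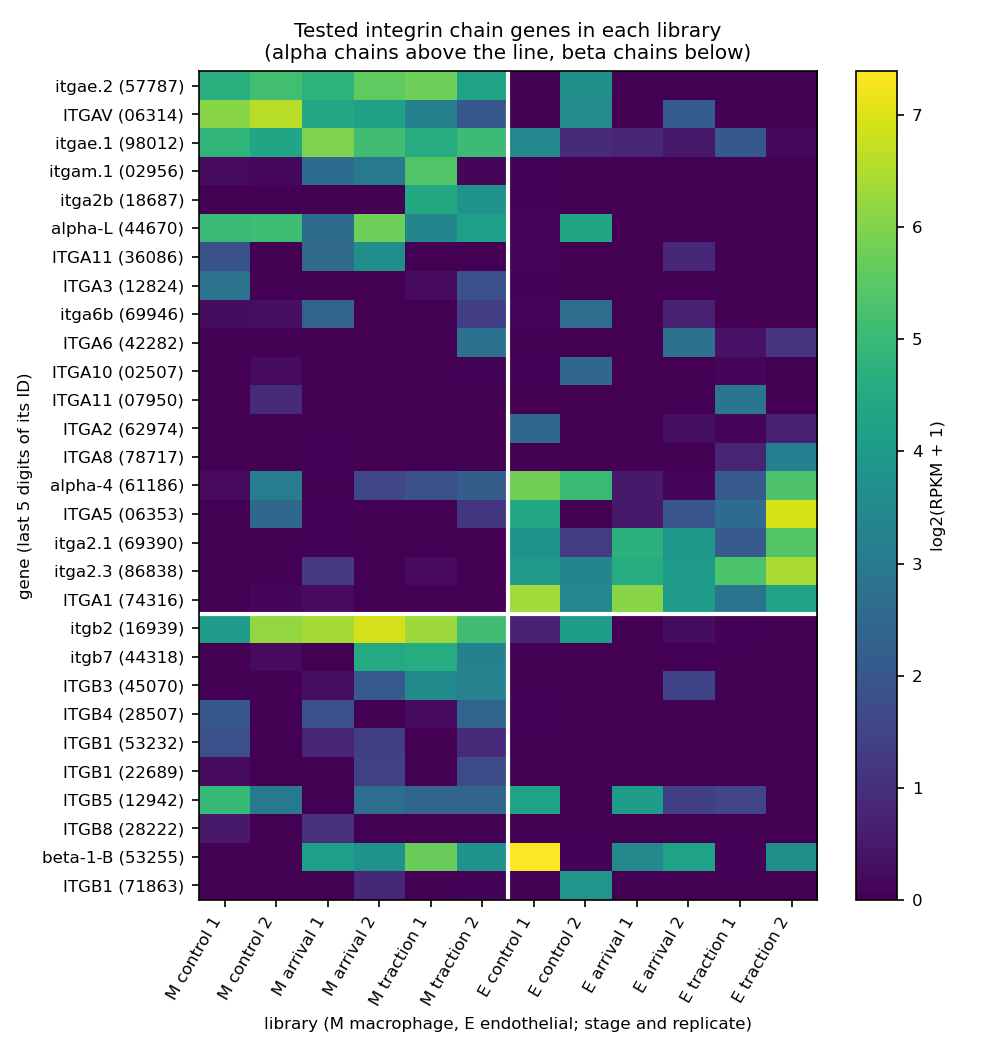
Log2(RPKM + 1) of the 29 tested integrin chain genes (lines) in the 12 libraries (columns, M macrophage and E endothelial, with stage and replicate), alpha chains above the white line and beta chains below it, each ordered by the difference between cell types. itgb2, itgae.1, itgae.2, alpha-L and ITGAV fill the macrophage columns, ITGA1, itga2.1 and itga2.3 fill the endothelial columns, and most other chains are at or near 0 in many libraries.

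Some integrin chains differed between the macrophage and the endothelial libraries. Of the 30 tested members, 6 were called between the cell types (2.82% of all tested genes were), itgb2, itgae.1 and itgae.2 higher in macrophages and ITGA1, itga2.1 and itga2.3 higher in endothelial cells. That is 3 higher, where 2.15% of all tested genes were called higher (0.645 of 30 at that rate), and 3 lower, where 0.676% were called lower (0.203 of 30). The libraries of the cell types did not overlap for 3 members higher in macrophages, itgae.1, itgae.2 and itgam.1, where 1.94% of genes did not, and for the 3 called lower, where 0.613% did not. Voom, a count-based fit on reads recovered from the RPKM, called 8 members, where it called 6.18% of genes. It added alpha-L, ITGAV and itgam.1 and did not call itgae.1. The macrophage set called by limma holds the leukocyte beta chain and alpha-E copies, and the endothelial set is 3 genes of the collagen-binding alpha chains.

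itgb2 (ENSDARG00000016939) encodes the beta-2 chain that leukocyte integrins share. It stood at 16.01 and 72.0 RPKM in macrophage control, 84.0 and 121 at arrival and 78.7 and 34.3 at traction. In endothelial cells it stood at 0.662 and 16.3 in control, 0.00866 and 0.177 at arrival and 0.0474 and 0.00796 at traction. All macrophage libraries lay above all endothelial libraries except that endothelial control replicate 2, the library with macrophage markers, stood just above macrophage control replicate 1. The log2 difference was 4.98 ± 1.08 (limma adjusted p = 0.00708).

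The alpha-E chain is known in mammals for pairing with beta-7 on lymphocytes and dendritic cells and binding E-cadherin. itgae.2 (ENSDARG00000057787) stood at 25.1 and 34.5, 26.3 and 47.5, and 53.0 and 18.6 RPKM in macrophage control, arrival and traction. It stood at 12.0 in endothelial control replicate 2 and at most 0.0284 in the other 5 endothelial libraries, so the cell types did not overlap (4.41 ± 1.04, limma adjusted p = 0.0143). itgae.1 (ENSDARG00000098012) stood at 27.5 and 19.3, 61.0 and 34.3, and 23.1 and 32.7 RPKM in macrophages and at 9.75 and 0.849, 0.736 and 0.389, and 3.11 and 0.122 in endothelial cells. These groups did not overlap either (3.69 ± 1.03, limma adjusted p = 0.0494). The itgae copies are similar in name and annotation, and how reads shared between them were counted is not stated in the sources used here.

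The endothelial side was led by ITGA1 (ENSDARG00000074316), the alpha-1 chain, a receptor for collagens and laminins. It stood at 80.9 and 10.0, 66.9 and 15.7, and 6.30 and 18.4 RPKM in endothelial control, arrival and traction, and no macrophage library exceeded 0.151. The difference was -4.46 ± 1.00 (limma adjusted p = 0.00965), with no overlap. The alpha-2 copy itga2.3 (ENSDARG00000086838) stood at 14.6 and 9.30, 23.1 and 15.5, and 38.0 and 87.5 RPKM in endothelial cells, with a macrophage maximum of 1.40 (-4.37 ± 0.99, limma adjusted p = 0.00985). The copy itga2.1 (ENSDARG00000069390) stood at 13.0 and 1.51, 25.2 and 14.3, and 3.38 and 41.4 RPKM in endothelial cells, with 1 read in all 6 macrophage libraries together (-3.54 ± 0.98, limma adjusted p = 0.0462). These 3 genes had reads in every endothelial library, also in the one with macrophage markers.

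**Figure D2:**
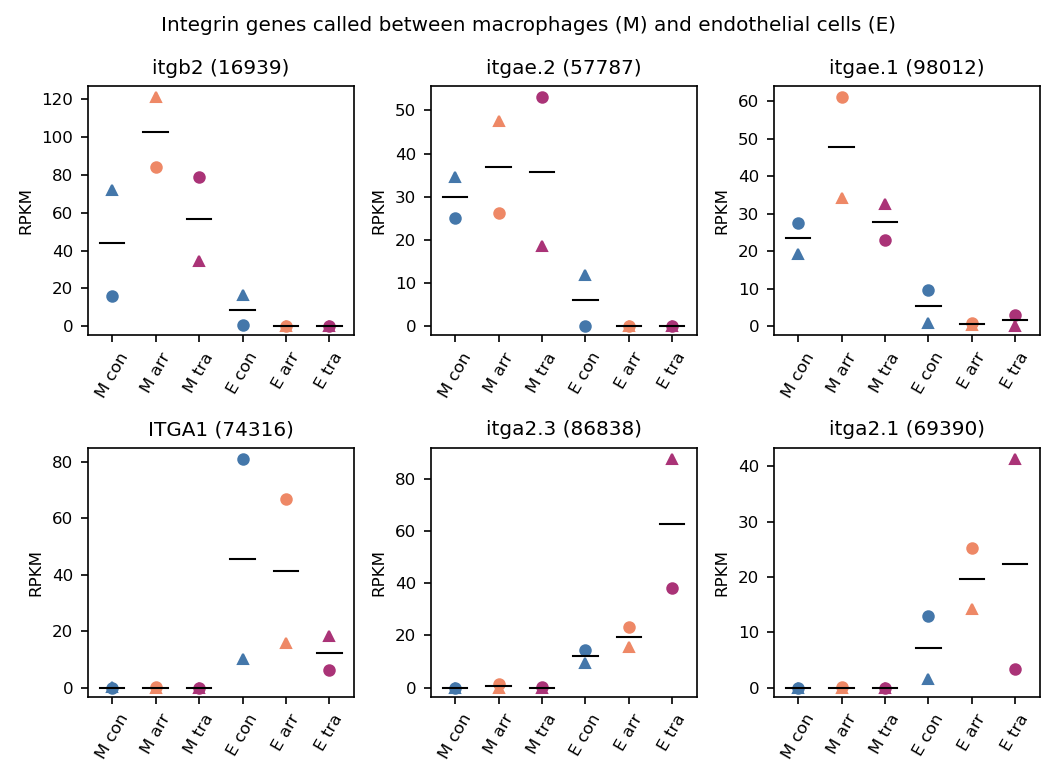
RPKM (vertical axes, linear) of the 6 integrin genes called between macrophages (M) and endothelial cells (E) by lesion stage (con control, arr arrival, tra traction). Circles are replicate 1, triangles replicate 2 and the bar their mean; the upper row is higher in macrophages, the lower row in endothelial cells, and in the endothelial control group the triangle is the library with macrophage markers.

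Without the 3 photoreceptor libraries none of the 6 members was called (limma adjusted p of 0.0555 for ITGA1, 0.103 for itga2.3, 0.168 for itgb2, 0.169 for itga2.1, 0.215 for itgae.2 and 0.26 for itgae.1). The differences there were -5.06, -4.40, 4.49, -3.87, 3.99 and 3.72, near those of all 12 libraries, and 0.999% of all tested genes were called. Without endothelial control replicate 2, 6 members were called again, alpha-L in place of itgae.1, where 2.96% of all tested genes were called. The calls of itgae.1 and itga2.1 rested on the full set: they ended in 11 and 10 of the 12 fits that left out 1 library (adjusted p of 0.0502 to 0.137 and 0.0658 to 0.146). That of itgae.2 ended without macrophage arrival replicate 2 (0.0571) or macrophage traction replicate 1 (0.0543).

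The alpha-L and alpha-M genes followed the same side without a limma call, while voom called both (voom adjusted p = 0.00306 and 0.0237). The gene described as integrin alpha-L (ENSDARG00000044670, no symbol in the name table), the partner of beta-2 in lymphocyte function-associated antigen, stood at 30.4 and 33.3, 5.11 and 53.5, and 9.61 and 17.0 RPKM in macrophages. It stood at 19.8 in endothelial control replicate 2 and at most 0.0822 in the other endothelial libraries (3.57 ± 1.06, limma adjusted p = 0.0724, and 0.0233 without that library). itgam.1 (ENSDARG00000002956), the alpha-M chain of complement receptor 3, stood at 0.168 and 0.108, 4.98 and 6.87, and 40.5 and 0.0752 RPKM in macrophages, above the endothelial maximum of 0.0599 and so without overlap (1.88 ± 0.89, limma adjusted p = 0.425). At its low end that separation rested on few reads. There were 7 in macrophage control replicate 2 and 14 in macrophage traction replicate 2. Endothelial control replicate 1 had 6 and endothelial arrival replicate 2 had 7. The highest itgam.1 value fell in macrophage traction replicate 1, the library with neutrophil markers at 2312.9 RPKM. The part of neutrophils in it was not tested. itgam.2 (ENSDARG00000096587), described as alpha-D, had no reads in any library.

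ITGAV (ENSDARG00000006314) encodes a chain of the vitronectin receptors. Its deposited description reads integrin alpha-5, from a Xenopus entry, and its symbol in the name table is ITGAV. It stood at 66.5 and 95.4 RPKM in macrophage control, 20.6 and 17.9 at arrival and 8.25 and 3.05 at traction. In endothelial cells it stood at 0.0209 and 10.8, 0 and 3.42, and 0.0168 and 0.00705, the highest again in endothelial control replicate 2 (3.47 ± 1.04, limma adjusted p = 0.0766). ITGB5 (ENSDARG00000012942), a beta chain that pairs with alpha-V, stood at 29.9 and 6.88, 0 and 5.37, and 4.32 and 4.32 RPKM in macrophages and 18.5 and 0.0266, 15.95 and 1.63, and 1.91 and 0 in endothelial cells (0.68 ± 1.10, limma adjusted p = 0.839).

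Alpha-5 and alpha-4 were mainly read in endothelial libraries, without a call. ITGA5 (ENSDARG00000006353), the fibronectin receptor chain, stood at 20.1 and 0.00555, 0.392 and 2.95, and 5.01 and 123 RPKM in endothelial cells, with a macrophage maximum of 4.61 (-2.11 ± 1.10, limma adjusted p = 0.491). The gene described as integrin alpha-4 (ENSDARG00000061186), a chain that binds VCAM and fibronectin, stood at 54.4 and 30.5, 0.419 and 0.0803, and 3.24 and 39.1 RPKM in endothelial cells. In macrophages it stood at 0.137 and 7.65, 0 and 2.00, and 2.56 and 3.55 (-1.65 ± 1.08, limma adjusted p = 0.541).

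Beta-1, the chain that alpha-1, alpha-2, alpha-4 and alpha-5 pair with, was read mainly from 1 of its 4 gene IDs. The gene described as integrin beta-1-B (ENSDARG00000053255) stood at 167 and 0.0414, 10.3 and 18.5, and 0.0544 and 11.9 RPKM in endothelial control, arrival and traction. In macrophages it stood at 0.0228 and 0, 17.1 and 12.8, and 50.9 and 12.6, which overlaps the endothelial range (-0.26 ± 1.30, limma adjusted p = 0.957). The 3 genes named ITGB1 (ENSDARG00000022689, ENSDARG00000053232 and ENSDARG00000071863) stood at 2.48 RPKM or less everywhere except 13.6 for the last in endothelial control replicate 2. How reads shared between these copies were counted is not stated in the sources used here.

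The sums describe the make-up of the chain values in each library. The alpha-E, alpha-L, alpha-M and alpha-D genes held 44.5% to 81.7% of the summed alpha chain RPKM in macrophages, 18.7% in endothelial control replicate 2 and at most 5.01% in the other 5 endothelial libraries. The alpha-1, alpha-2, alpha-10 and alpha-11 genes held 46.2% to 98.6% in those 5 endothelial libraries, 14.5% in endothelial control replicate 2 and at most 6.88% in macrophages. itgb2 held 30.7% to 91.1% of the summed beta chain RPKM in macrophages. Its share was 54.45% in endothelial control replicate 2, within the macrophage range, and at most 2.24% in the other 5 endothelial libraries. Summed beta chains were below summed alpha chains in every endothelial library. They came to 187 and 29.9 RPKM against 198 and 174 in control, 26.3 and 22.1 against 117 and 59.7 at arrival, and 2.12 and 11.9 against 66.9 and 319.7 at traction. In macrophages beta chains came to 52.1 to 169 RPKM and alpha chains to 99.1 to 196. There too beta chains were below alpha chains in every library except traction replicate 1 (168.5 against 158.7 RPKM). The alpha sums run over 27 genes and the beta sums over 12, so they do not measure a shortage of beta chains. These shares and sums are descriptions with no test.

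**Figure D3:**
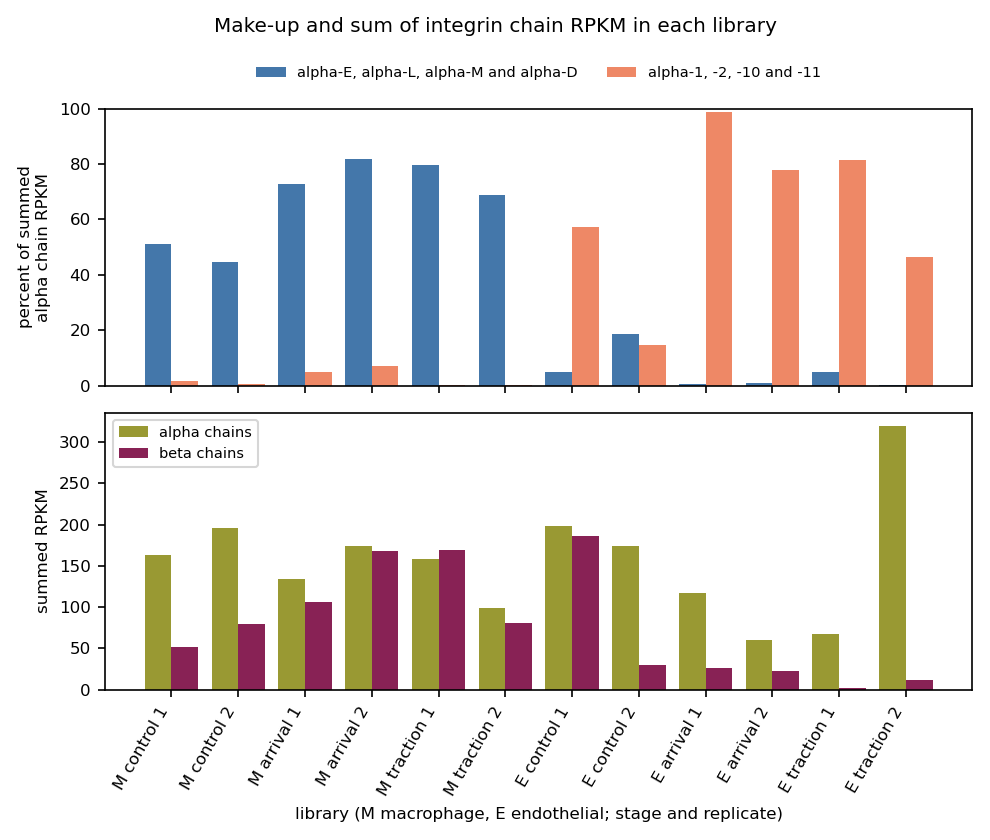
Upper bars, percent of the summed alpha chain RPKM of each library held by the alpha-E, alpha-L, alpha-M and alpha-D genes (blue) and by the alpha-1, alpha-2, alpha-10 and alpha-11 genes (orange); lower bars, summed RPKM of all alpha and all beta chains. The blue bars stand at 44.5% to 81.7% in macrophages, and the endothelial control replicate 2 bars stand apart from those of the other endothelial libraries.

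The macrophage groups at arrival and control were compared to ask which chains differed once a macrophage had reached the lesion. No member was called, nor was any of the 17613 genes (background 0.0%), and 0 of 30 tested members had an unadjusted p under 0.05 against 4.16% of all genes. Voom called 220 genes (1.25%), none of them a member. Both arrival libraries lay above both control libraries for 8 tested members, where 12.5% of genes did so (3.75 of 30), and below for 3, where 11.1% did (3.33 of 30). The 8 included itgb2 and itgae.1, whose values are given above.

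The smallest p at arrival belonged to ITGA11 (ENSDARG00000036086), a collagen-binding alpha chain, at 2.67 and 0 RPKM in control and 4.86 and 11.9 at arrival (2.18 ± 1.19, limma adjusted p = 1). The beta-1-B gene, near 0 in both controls, stood at 17.1 and 12.8 RPKM at arrival (3.96 ± 2.16, limma adjusted p = 1). ITGB1BP1, whose product binds the beta-1 tail, stood at 4.16 and 0 RPKM in control and 60.6 and 25.1 at arrival (4.14 ± 2.39, limma adjusted p = 1). In all 3 the groups did not overlap, and the differences were below 2 SE.

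The macrophage groups at traction and control were compared to ask which chains differed while the cell pulled. limma called no member and no gene (background 0.0%), and 5 of 30 tested members had an unadjusted p under 0.05, where 5.96% of genes did (1.79 of 30). Voom called 3 members, itga2b, ITGB3 and the beta-1-B gene, where it called 471 genes or 2.67%. Both traction libraries lay above both controls for 4 members (19.1% of genes, 5.73 of 30) and below for 4 (11.0%, 3.3 of 30).

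itga2b and ITGB3 encode the chains of the fibrinogen receptor that marks platelets and their zebrafish counterpart, the thrombocytes. itga2b (ENSDARG00000018687, described as alpha-8 in the deposited tables) stood at 21.3 and 12.8 RPKM at traction, from 1704 reads in each library. It had at most 4 reads in each of the other 10 libraries, with 1 and 0 reads in macrophage control and 1 and 0 at arrival. The gene thus passed the filter on low reads only through the group where it is high. Its separation from the other groups was built into its being tested. Its p-values, and its place in the counts and calls at traction, are therefore description and no independent support. The difference from control was 4.13 ± 1.08 (limma adjusted p = 0.427, voom adjusted p = 0.00311) and that from arrival 4.12 ± 1.08 (limma adjusted p = 0.688, voom adjusted p = 0.00408). Fits with traction replicate 1 or 2 left out, or without the photoreceptor libraries, leave 1 library for traction. The gene's own spread then comes only from groups with at most 4 reads in each library, so such fits cannot test the difference. A lone library is assumed there to vary like the other groups.

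ITGB3 (ENSDARG00000045070) stood at 0 in both macrophage controls, 0.217 and 3.26 RPKM at arrival and 10.4 and 8.71 at traction, its highest values in the 12 libraries (3.39 ± 1.28, limma adjusted p = 0.713, voom adjusted p = 0.00953). Against arrival its difference was 2.21 ± 1.28 (limma adjusted p = 1). A separate ITGB3 gene (ENSDARG00000056767) did not pass the filter, at 1.30 RPKM in traction replicate 1 and at most 0.0136 elsewhere. Thrombocyte markers other than integrins (6 genes) summed to 22.9 and 14.9 RPKM in these libraries, against 0.0678 to 4.10 in the other macrophage libraries and 0.0816 to 42.4 in endothelial cells. Of these, the thrombopoietin receptor gene mpl stood at 6.74 and 4.51 RPKM at traction, at 4.10 in macrophage control replicate 1 and at most 0.0816 elsewhere. The coagulation factor gene f5 stood at 3.26 and 2.22 RPKM at traction and at most 0.0654 elsewhere. NFE2 stood at 11.7 and 6.13 RPKM at traction, at most 1.65 in the other macrophage libraries and up to 10.0 in endothelial cells. The other 3 were not higher at traction. GP1BB stood at 1.23 and 2.02 RPKM there, 2.57 in macrophage control replicate 2 and up to 10.5 in endothelial cells, gp9 was at 0 in both traction libraries and up to 29.9 in endothelial cells, and FGG was at 0 in every macrophage library. The part of thrombocytes in the itga2b and ITGB3 values was not tested.

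itgb7 (ENSDARG00000044318), the beta chain that pairs with alpha-E and alpha-4, stood at 0.0145 and 0.167 RPKM in macrophage control, 0 and 21.8 at arrival and 22.8 and 8.60 at traction (traction against control 3.80 ± 1.53, limma adjusted p = 0.759). It had at most 2 reads in any endothelial library. ITGAV was lower at each later stage without overlap of the macrophage groups, an order that 0.659% of genes had, and its difference from control at traction was -3.72 ± 1.76 (limma adjusted p = 0.828). The beta-1-B gene gave 4.72 ± 2.16 for traction against control (limma adjusted p = 0.828, voom adjusted p = 0.0133).

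Traction was set against arrival in macrophages to ask which chains differed between pulling and arrival. The comparison cannot separate pulling from the later stage or from other cells in the libraries. limma called 1 of 17613 genes (0.00568%), not a member, and 2 tested members had an unadjusted p under 0.05, where 3.36% of genes did (1.01 of 30). These were itga2b, above, and ITGA11 (ENSDARG00000036086), at 4.86 and 11.9 RPKM at arrival and 0 in both traction libraries (-3.12 ± 1.19, limma adjusted p = 1, voom adjusted p = 0.00275). Voom called both of them, of 304 genes or 1.73%. Both traction libraries lay above both arrival libraries for 4 members (14.9% of genes, 4.47 of 30) and below for 4 (9.39%, 2.82 of 30), among the latter itgb2 and itgae.1. In the authors' deposited tables, which mark genes by an unadjusted p, itga2b and ITGA11 are marked for this comparison (p = 0.00384 and 0.00984), 2 of 34 members with a p where 2.79% of genes are marked. For traction against control the authors' deposited table marks itga2b (p = 0.0152), the beta-1-B gene (p = 0.0303) and ITGAV (p = 0.0467), 3 of 33 members where 2.75% of genes are marked. Every adjusted p of a member in the authors' deposited tables is 1, and no member is marked in the other 4 tables.

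**Figure D4:**
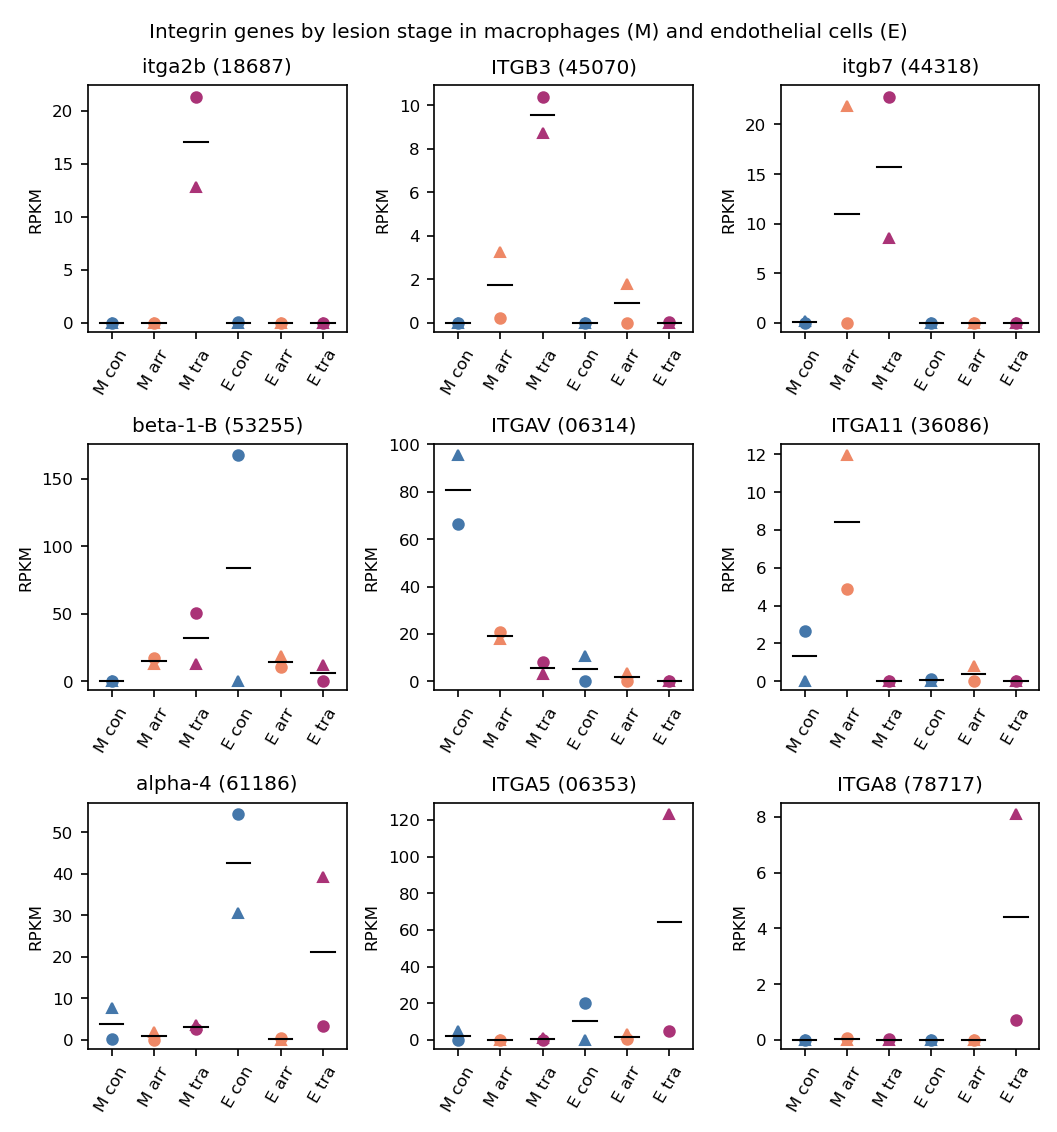
RPKM (vertical axes, linear) of 9 integrin genes by lesion stage (con control, arr arrival, tra traction) in macrophages (M) and endothelial cells (E); circles are replicate 1, triangles replicate 2 and bars their mean. itga2b is at 21.3 and 12.8 RPKM in macrophage traction and near 0 in all other groups, ITGAV is highest in macrophage control, and ITGA5 and ITGA8 are highest in 1 endothelial traction library.

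Endothelial arrival was set against control to ask whether chains of the vessel ends differed once a macrophage had come. limma called no gene (background 0.0%), and 1 of 30 tested members had an unadjusted p under 0.05, where 4.08% of genes did (1.22 of 30). Voom called 297 genes (1.69%), none of them a member. That member was the alpha-4 gene, at 54.4 and 30.5 RPKM in control and 0.419 and 0.0803 at arrival (-5.08 ± 1.76, limma adjusted p = 0.945). The next were ITGB1 (ENSDARG00000071863, -1.94 ± 0.94) and ITGA10 (ENSDARG00000002507, -1.25 ± 0.60), a cartilage collagen receptor chain (limma adjusted p = 0.978 for each). Each of these rested on endothelial control replicate 2, at 13.6 and 4.44 RPKM. Both arrival libraries lay below both controls for 7 members (11.8% of genes, 3.54 of 30) and above for 2 (10.4%, 3.12 of 30). Of the 7, itgb2, itgae.2 and alpha-L were high only in the control library with macrophage markers, whose part was not tested.

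Endothelial traction was set against control and against arrival. limma called no gene in either (background 0.0%), and 1 of 30 tested members had an unadjusted p under 0.05 in each, where 3.8% and 3.38% of genes did. Voom called 307 genes (1.74%) and 228 genes (1.29%), none of them a member. That member was ITGA8 (ENSDARG00000078717), the alpha-8 chain, which binds nephronectin. It stood at 0.704 and 8.11 RPKM at traction and at most 0.0539 in any other library (1.97 ± 0.70 against control and 1.97 ± 0.70 against arrival, limma adjusted p = 0.979 and 1). Its values at the other stages came from 1 read or none in each endothelial library. ITGA8 thus passed the filter only through the traction group where it is high. Its separation from control and arrival was built into its being tested, and its p-values are no independent support. Without the photoreceptor libraries, with 1 library left in each of these endothelial groups, its limma adjusted p against arrival was 0.0446, in a fit that called 1.08% of genes. That sets 1 library against 1, with the spread taken wholly from other groups, so it is no replicated test. ITGA10 and ITGB1 (ENSDARG00000071863) again followed by p against control, at -1.18 ± 0.60 and -1.94 ± 0.94 (limma adjusted p = 0.979 each). Against arrival the next were ITGA11 (ENSDARG00000007950), at 6.53 and 0 RPKM at traction and 0 at arrival (1.46 ± 0.74, limma adjusted p = 1), and the alpha-4 gene (3.40 ± 1.76, limma adjusted p = 1).

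itga2.3 stood higher at each later stage in endothelial cells, at 9.30 to 14.6, 15.5 to 23.1 and 38.0 to 87.5 RPKM, with no overlap between the 3 groups of 2 libraries. It was the only tested member in that order there, where 0.346% of genes were. The differences were 0.65 ± 1.62 for arrival against control, 2.21 ± 1.62 for traction against control and 1.56 ± 1.62 for traction against arrival (limma adjusted p = 1, 0.979 and 1), so none passed the test. Both traction libraries lay above both controls for 3 members (8.7% of genes, 2.61 of 30) and below for 6 (14.5%, 4.35 of 30). Against arrival they lay above for 6 (7.9%, 2.37 of 30), ITGA5 and alpha-4 among them, and below for 0 (11.5%, 3.45 of 30). Of the 6, ITGA10 and alpha-L separated on few reads. ITGA10 had 10 and 1 reads at traction against 0 and 1 at arrival, and alpha-L 3 and 4 against 0 and 2. ITGA8, counted as above in both comparisons, passed the filter only through the traction libraries.

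Whether a stage difference itself differed between macrophages and endothelial cells was tested at arrival and at traction, and no member or gene was called (background 0.0% in each). Unadjusted p fell under 0.05 for 0 tested members at arrival, where 3.57% of genes did so, and for 2 at traction, where 4.2% did. Voom called 50 genes (0.284%) and 66 genes (0.375%), none of them a member. The 2 members were itga2b (4.16 ± 1.53) and the beta-1-B gene (6.56 ± 3.06), each with the larger difference from control in macrophages (limma adjusted p = 0.953 each). ITGA8 followed with -1.96 ± 0.99 (limma adjusted p = 0.953). Both itga2b and ITGA8 passed the filter only through the traction group where each is high, so their p-values here are no independent support. With the photoreceptor libraries left out, the differences of itga2b and ITGA8 were 3.82 and -3.18. That fit had 1 traction library left in each cell type, so it is no replicated test. At arrival the smallest p values were those of ITGB1 (ENSDARG00000071863, 2.36 ± 1.33), alpha-4 (4.22 ± 2.50) and itgb2 (3.83 ± 2.50), with limma adjusted p = 0.949 each.

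Chains of epithelial and muscle integrins were low and scattered. ITGB4 (ENSDARG00000028507), a hemidesmosome chain, stood at 3.06 RPKM in macrophage control replicate 1, 2.52 in arrival replicate 1, 4.24 in traction replicate 2 and at most 0.152 elsewhere. ITGA3 (ENSDARG00000012824) was highest in the same control and traction libraries at 5.99 and 2.50 RPKM, itga3a (ENSDARG00000037917) in that control library at 3.90, and ITGB6 (ENSDARG00000002494) in that traction library at 4.99. Epidermal markers other than integrins (10 genes) summed to 584.5 and 854.7 RPKM in those libraries and 0.798 in arrival replicate 1, against 30.9 to 111.5 in the other macrophage and 78.2 to 737.6 in the endothelial libraries. The part of epidermal cells was not tested. ITGA6 (ENSDARG00000042282), the partner of ITGB4, stood at 5.93 RPKM in macrophage traction replicate 2 and 5.70 in endothelial arrival replicate 2, and itga6b (ENSDARG00000069946) at 0 to 5.30 RPKM over the series. ITGB8 (ENSDARG00000028222), a partner of alpha-V, stood at most at 0.986 RPKM, and ITGA2 (ENSDARG00000062974) at 4.58 in endothelial control replicate 1 and at most 0.598 elsewhere.

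The filter left 12 members untested. ITGA9 (ENSDARG00000032435), a tenascin receptor chain, had 1366 reads and 69.6 RPKM in endothelial control replicate 2 and no read in the other 11 libraries. Of the 3 genes described as alpha-7, the laminin receptor chain of muscle, 1 (ENSDARG00000091806) had 83 reads, all in macrophage arrival replicate 1, and the others 3 and 0. itga6l (ENSDARG00000056018), si:dkey-27b3.8 (ENSDARG00000095015) and the beta-like genes si:dkey-250i3.4 (ENSDARG00000097771) and ITGBL1 (ENSDARG00000040985) had 4, 1, 4 and 0 reads in all. The remaining untested members are itga3a, itgam.2, ITGB6 and the ITGB3 copy described above.

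Integrins are switched on from inside the cell by adaptor proteins. Of 49 genes matched to a list of adaptors and activators, 41 were tested, with a median difference of 0.12 against 0.19 over all genes. limma called 2 higher in macrophages and 0 lower, where 0.88 and 0.277 of 41 would be called at the rates of all genes, 2.15% and 0.676%. Voom called 5 higher, with PTK2B (ENSDARG00000022841), rap1ab and SYK, and 4 lower, TNS1, FERMT2, PARVA (ENSDARG00000043710) and BCAR1, where its rates were 4.16% and 2.02%. Both tools called parvg (ENSDARG00000067711), gamma-parvin, an actin-binding adaptor of leukocytes, and FERMT3 (ENSDARG00000079267), kindlin-3, which activates leukocyte and platelet integrins. parvg stood at 45.4 to 253 RPKM in macrophages, at 185 in endothelial control replicate 2 and at most 0.0352 in the other endothelial libraries (5.84 ± 1.18, limma adjusted p = 0.00361). FERMT3 stood at 11.7 to 232 RPKM in macrophages, at 35.0 in that endothelial library and at most 0.0272 in the others (4.63 ± 1.08, limma adjusted p = 0.0135). limma called no adaptor between stages in either cell type. Voom called 1 lower in macrophage arrival against control, where 0.426% of all genes were (0.175 of 41 at that rate). It called 2 higher in macrophage traction against control (2.37%, 0.971 of 41) and 1 higher against arrival (1.58%, 0.647 of 41). In endothelial traction against control it called 1 higher (0.857%, 0.352 of 41).

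Ligand genes called lower in macrophages exceeded the rate of all genes, and those called higher lay near it. Of 43 matched to a list of integrin ligands, 33 were tested, with a median difference of -0.62 against 0.19 over all genes. limma called 1 higher in macrophages and 3 lower, where 0.708 and 0.223 of 33 would be called at the rates of all genes, 2.15% and 0.676%. Voom called 2 higher, adding f11r.1, and 5 lower, adding COL4A1 and LAMB1, at rates of 4.16% and 2.02%. icam3 (ENSDARG00000076144), of the ICAM family that beta-2 integrins bind, stood at 4.14 to 118 RPKM in macrophages, with an endothelial maximum of 15.7 (4.52 ± 1.14, limma adjusted p = 0.0231). lama4 (ENSDARG00000020785), a laminin chain of vessel basement membranes, stood at 8.52 to 56.4 RPKM in endothelial cells, with a macrophage maximum of 0.327 (-4.70 ± 1.00, limma adjusted p = 0.00602). The junctional adhesion molecules jam2a (ENSDARG00000058996) and JAM3 (ENSDARG00000061794), which in mammals bind alpha-4 with beta-1 and alpha-M with beta-2, stood at 14.1 to 143 and 12.5 to 76.5 RPKM in endothelial cells. In macrophages they reached 21.5 and 6.21 RPKM (-4.55 ± 1.13 and -3.99 ± 1.02, limma adjusted p = 0.021 and 0.0264). limma called no ligand between stages in either cell type. Voom called 1 lower in macrophage arrival against control, where 0.426% of all genes were (0.141 of 33 at that rate). It called 2 higher in macrophage traction against control (2.37%, 0.781 of 33) and 2 higher against arrival (1.58%, 0.521 of 33). In endothelial arrival against control it called 1 lower (0.466%, 0.154 of 33).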

How the data were processed

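Per the submitters' processing notes, the tools were DESeq 1.16.0, HTSeq 0.6.0, TopHat2 2.0.12 and Bowtie2 2.2.3. The genome build is not given in the sources used here, and gene positions are left out. Per the labels' protocols, converted cells were sorted, and libraries were made with Smart-seq2 and read as pairs of 100 bases. The authors deposited RPKM per gene and library. Per the file headers they also deposited, for stage against stage in one cell type, mean normalized signal per group and p-values.

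Whole reads were recovered by combining RPKM with the deposited group means (100% of values above 0 were whole within 0.05 reads). A gene was tested if it had 10 or more reads, scaled to the median depth, in 2 libraries and 15 in all. limma 3.58.1 in R 4.3.3 was fitted to log2(RPKM + 1) with trend and robust variances over all 12 libraries: cell type plus stage for the cell types, and a mean for each of 6 groups for stages. Tests were two-sided. The fit was run on simulated reads with large changes placed in genes with many reads, and checked for the cell type comparison only. The simulated spread did not copy the all or nothing values of the chains, so that check does not speak for them. Alternatives were voom on recovered reads with TMM scaling, quantile normalization, a pseudocount of 0.1, no filter, a replicate block and leaving out libraries. Smart-seq2 reads carry no molecular identifiers, so depth speaks for counting error only.

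Members and lists were chosen with earlier results of these data known. Named in full were members called between cell types, members with 10 RPKM in both libraries of a group, the 3 smallest p of each stage comparison, and called list genes. Other members are given so that all are accounted for. Names came from a table of Ensembl IDs (36 of 42 members) or the deposited description.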

Additional observations from a re-analysis of the deposited data

How the results depend on the processing

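Between cell types, 6 members were called in the main analysis, 6 with the replicate block, 6 with a pseudocount of 0.1, 5 with quantile normalization, 4 with no filter and 8 with voom. The count was 3 to 6 with 1 library left out, lowest without macrophage arrival replicate 2 or macrophage traction replicate 1, and 0 without the photoreceptor libraries. For macrophage traction, against control and against arrival, voom called 3 and 2 members. The fit without the photoreceptor libraries leaves 1 macrophage traction library and is no replicated test. No count of calls is drawn from it for these comparisons. ITGA6, for example, had 877 reads in the kept traction replicate 2 and 0 in the left-out replicate 1. With 1 library other than a macrophage traction library left out, no member was called in either comparison. Without the photoreceptor libraries 1 member was called for endothelial traction against arrival, where 1.08% of genes were, and 2 for the difference between cell types at traction, where 4.64% were. In these fits 1 library stands for a group. The counts of the other 4 comparisons were 0 under every alternative. Of 648 values of named genes under an alternative, 591 kept their direction and their side of the threshold. Only 6 of the 36 named results were called in the main fit, so this count says little of the calls. A call was lost by 34 values, 12 of them of itga2.1 and 16 of itgae.1, out of 18 alternatives for each gene. Other values gained a call, some of them in fits that leave 1 library in a group, and a few had a difference that rounded to 0. Another 3 values reversed, all of them the beta-1-B gene between cell types. Its difference was 0.17 and 0.18 without macrophage control replicate 1 or 2 and 1.09 without endothelial control replicate 1. The range was -1.1 to 1.09 with 1 library left out, against -0.26 with all. The cause was not tested. Replicate numbers are shared between groups, but same-numbered libraries deviated together weakly (r of -0.211 to 0.14 over 15 pairs of groups, across genes), so the number was not taken to pair the samples, and the replicate block changed the call of no named gene. The median difference of all genes between cell types was 0.19, and -0.06 with quantile normalization. With 2 libraries a group, stage differences as large as -5.08 ± 1.76 (alpha-4, endothelial arrival) and 4.13 ± 1.08 (itga2b, macrophage traction) did not pass limma's adjusted threshold.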

Other observations

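The following 4 integrin regulators were picked after their values were seen, and limma called none of them between the cell types. Voom called FERMT2 and TNS1 (voom adjusted p = 0.00766 and 0.00831). rap1b (ENSDARG00000008867), a small GTPase that activates integrins, stood at 132.5 to 257.8 RPKM in the 6 macrophage libraries and 26.9 to 64.7 in the 6 endothelial ones, without overlap and with reads in every library (2.33 log2, limma adjusted p = 0.138). FERMT2 (ENSDARG00000020242), kindlin-2, stood at 3.28 to 17.0 RPKM in endothelial cells, with a macrophage maximum of 2.65 (-2.74, limma adjusted p = 0.166). TNS1 (ENSDARG00000020845), tensin-1, which links integrins to actin, stood at 3.94 to 27.0 RPKM in endothelial cells, with a macrophage maximum of 1.17 (-3.14, limma adjusted p = 0.0884).

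A further FERMT3 gene (ENSDARG00000030938) stood at 0.0198 and 48.2 RPKM in macrophage arrival and 107 and 27.9 in traction, and at most 0.0611 in macrophage control and in endothelial cells, so that 3 macrophage libraries lay within the endothelial range. The FERMT3 gene called between the cell types stood at 72.5 and 232 RPKM in macrophage control, 11.7 and 61.5 in arrival and 26.1 and 22.0 in traction. In arrival replicate 2 both copies were high. limma called neither copy between stages.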
